A study of Homo sapiens with 8 samples.

Results

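DLX1 to DLX6, MSX1 and MSX2 are 8 homeobox genes that were read on Illumina HumanHT-12 v4 bead arrays of human neuroblastoma cells. Every probe whose gene symbol is a member was taken, which gave 11 of 47322 probes and 8 of 31426 symbols. DLX1 has 2 probes, DLX4 has 3 and each of the other members has 1. The genes were chosen by the measured values of DLX5 (ILMN_1759598), which was higher in TRPM7 shRNA cells than in control cells of one line and lower in those of the other, so the DLX5 values of these contrasts are given as a description with no test. The question was whether DLX6, the neighbour of DLX5 in the genome, and the paralogs moved with it.

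The study compared SH-SY5Y, a neuroblastic line, and SH-EP2, an epithelial-like line, both derived from SK-N-SH neuroblastoma cells. Cells of each line carried either an shRNA against TRPM7, an ion channel with a kinase domain, or a scrambled shRNA as control. All groups had thus been transduced with a lentivirus, and the methods describe puromycin selection of stable cells. With 2 arrays in each of the 4 groups there were 8 arrays. A single TRPM7 shRNA sequence was used on the arrays, and nothing in the labels says whether replicates came from separate cultures. The p-values thus measure the spread between arrays, pooled within the 4 groups, which may be technical. RNA came from whole cultures, so fewer cells with a transcript and less transcript per cell cannot be told apart.

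DLX and MSX proteins are transcription factors that bind DNA through a homeodomain. DLX genes lie in the genome as convergently transcribed neighbours (DLX1 with DLX2, DLX3 with DLX4, DLX5 with DLX6), and the members of such a pair often share enhancers and domains of expression in the embryo. DLX proteins are generally described as activators and MSX proteins as repressors, and both families act downstream of BMP signals in the neural plate border, the neural crest, the jaws, teeth and limbs, and the skeleton. DLX genes also act in GABAergic interneurons of the forebrain. Neuroblastoma arises from the sympathoadrenal branch of the neural crest.

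The arrays detected 40.8% to 44.2% of their probes, where detected means a detection p under 0.05, and their median bead signals ranged from 104.7 to 119.9, lowest in SH-SY5Y control replicate 2. Values below are log2 normalized signals unless said otherwise, and signals of different probes cannot be set against each other. TRPM7 was measured by 1 probe (ILMN_1667047) that none of the 8 arrays detected, with detection p-values of 0.0753 to 0.201, so the knockdown could not be checked on these arrays. The paper reports stable TRPM7 knockdown in both lines, and its methods describe quantitative RT-PCR of TRPM7. Of 11 neuroblastic marker genes, SH-SY5Y arrays detected 10 (all but TH) and SH-EP2 arrays detected 3 or 4, with PHOX2A, DBH, DDC, CHGA and STMN2 among those undetected on every SH-EP2 array. The median of this list was 10.6 to 11.1 in SH-SY5Y and 2.53 to 2.81 in SH-EP2. Of 11 epithelial-like marker genes, SH-EP2 arrays detected 11, with a median of 10.88 to 10.97, and SH-SY5Y arrays detected 9, with FN1 and PRRX1 undetected. The median of the epithelial-like list was 7.15 and 7.29 in SH-SY5Y control cells and 6.14 and 6.18 in SH-SY5Y TRPM7 shRNA cells. SNAI2 was near the middle of the list in control cells (7.22) and lower in TRPM7 shRNA cells (4.45), and the median log2 change of the list's 18 probes was 0.03.

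The DNA just upstream of the members is shown for the neighbours of DLX5 and for the genes whose level differed between the lines. RefSeq promoter windows (GRCh38.p14) were found for 5 of the 8 members, and DLX3, DLX4 and DLX5 were not among them. Each line gives the 250 bases before the annotated start of the gene, 5′ to 3′ on the strand of the gene. Capitals mark TAATTA, the core that homeodomains of this kind can bind, and CCAAT, which reads ATTGG on the opposite strand. Both strands were searched, TAATTA reads the same on both, and no matches overlap.
DLX6, chr7:97005303-97005552, plus strand: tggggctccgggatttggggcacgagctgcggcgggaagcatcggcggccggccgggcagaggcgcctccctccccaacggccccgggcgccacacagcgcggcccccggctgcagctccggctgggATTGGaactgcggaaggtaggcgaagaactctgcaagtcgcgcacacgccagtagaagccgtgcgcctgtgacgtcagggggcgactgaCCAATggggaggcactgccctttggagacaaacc
DLX6-AS1, chr7:97014066-97014315, minus strand: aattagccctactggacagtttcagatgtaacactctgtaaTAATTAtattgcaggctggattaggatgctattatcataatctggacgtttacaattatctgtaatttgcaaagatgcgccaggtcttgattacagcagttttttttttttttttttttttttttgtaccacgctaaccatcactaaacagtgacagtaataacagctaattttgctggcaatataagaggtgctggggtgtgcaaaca
MSX1, chr4:4859415-4859664, plus strand: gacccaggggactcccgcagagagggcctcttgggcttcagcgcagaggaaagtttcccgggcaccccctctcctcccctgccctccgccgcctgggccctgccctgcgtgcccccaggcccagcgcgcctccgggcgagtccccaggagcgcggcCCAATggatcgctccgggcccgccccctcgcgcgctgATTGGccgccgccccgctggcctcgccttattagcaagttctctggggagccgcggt
MSX2, chr5:174724332-174724581, plus strand: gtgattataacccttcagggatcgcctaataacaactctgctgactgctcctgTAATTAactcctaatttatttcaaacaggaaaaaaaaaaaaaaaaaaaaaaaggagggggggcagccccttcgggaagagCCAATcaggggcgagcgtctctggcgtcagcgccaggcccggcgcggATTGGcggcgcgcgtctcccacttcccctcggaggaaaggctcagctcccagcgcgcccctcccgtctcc
DLX1, chr2:172085257-172085506, plus strand: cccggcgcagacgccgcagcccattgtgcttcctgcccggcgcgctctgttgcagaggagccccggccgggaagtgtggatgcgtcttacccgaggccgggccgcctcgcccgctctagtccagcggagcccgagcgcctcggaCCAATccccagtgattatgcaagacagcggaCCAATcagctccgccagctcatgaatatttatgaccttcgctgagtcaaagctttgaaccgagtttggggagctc

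The MSX2 window holds TAATTA 1 time, as does that of DLX6-AS1, an antisense transcript of the DLX5 and DLX6 locus, and it was found in none of the windows of DLX1, DLX2, DLX6 and MSX1. Of 35116 RefSeq promoter windows of the same length, 4.35% hold TAATTA. The CCAAT box occurred 2 times each in the windows of DLX1, DLX6, MSX1 and MSX2 and 1 time in that of DLX2, and 32% of all windows hold it. TATAAA, the core of a TATA box, was found in none of these windows, against 10.7% of all. The DLX6 window is rich in G and C (70.0%), as is that of MSX1 (74.0%), while the DLX6-AS1 window holds 35.2%. These are matches of letters, and binding was not measured.

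DLX5 was the only member that all 8 arrays detected. Its signals were 3.60 and 4.09 in SH-SY5Y control cells and 6.11 and 6.36 in SH-SY5Y TRPM7 shRNA cells. In SH-EP2 they were 5.43 and 5.32 in control cells and 4.07 and 3.79 in TRPM7 shRNA cells. The groups did not overlap within either line. The log2 fold change of TRPM7 shRNA against control was 2.39 in SH-SY5Y and -1.45 in SH-EP2. In order of level, SH-SY5Y TRPM7 shRNA cells (6.24 ± 0.18, SD, n = 2) came first and SH-EP2 control cells (5.38 ± 0.074, SD, n = 2) next. SH-EP2 TRPM7 shRNA cells (3.93 ± 0.20, SD, n = 2) and SH-SY5Y control cells (3.85 ± 0.35, SD, n = 2) followed, and their arrays overlapped.

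The direction of the DLX5 values was also seen in the deposited bead signals, which are linear and not normalized. They were 121.8 and 117.0 in SH-SY5Y control cells and 189.9 and 214.9 in SH-SY5Y TRPM7 shRNA cells. In SH-EP2 they were 158.7 and 147.9 in control cells and 133.9 and 129.5 in TRPM7 shRNA cells. The lowest signal among detected probes lay between 109.3 and 124.8 on the 8 arrays, so that the lower DLX5 groups were close to the detection limit. The size of the DLX5 difference moved with the background correction, and the cause was not tested. In SH-SY5Y it was 1.46 with neqc, 0.80 with normexp and 0.57 without background correction, and in SH-EP2 it was -0.80, -0.40 and -0.27.

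**Figure D1:**
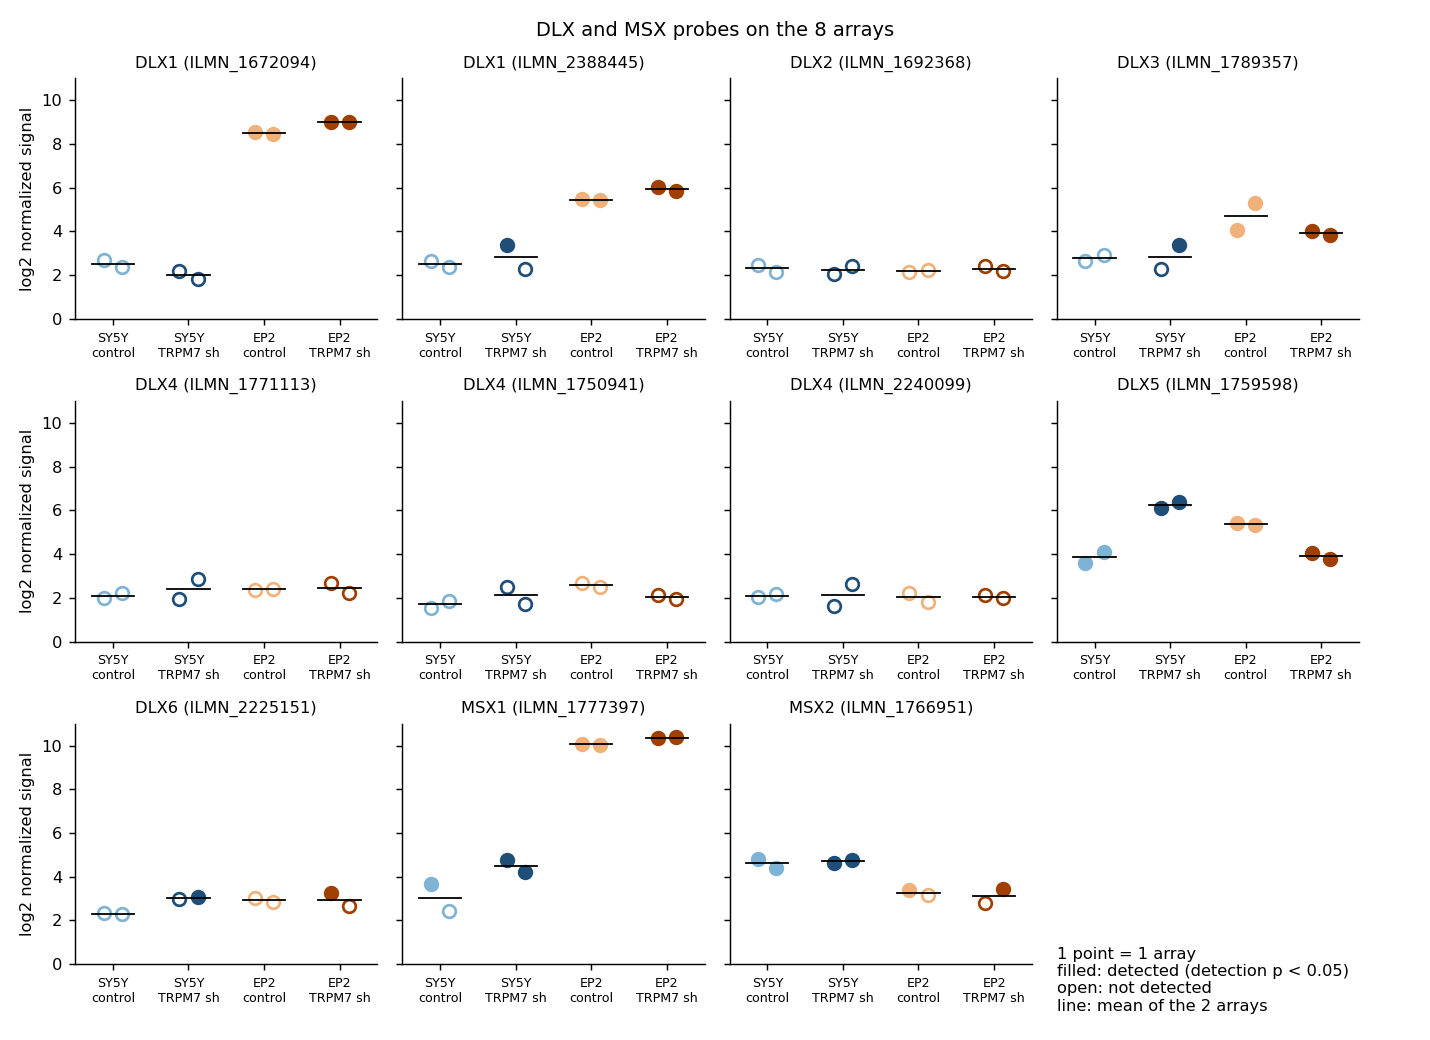
Log2 normalized signal (vertical axis) of each of the 11 DLX and MSX probes on the 8 arrays, with 1 point per array, filled where the array detected the probe and open where not, and a line at the mean of the 2 arrays of a group. DLX5 is filled in all 4 groups, both DLX1 probes and MSX1 are high in SH-EP2, MSX2 is higher in SH-SY5Y, and the DLX2 probe and the 3 DLX4 probes are open throughout.

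DLX6, the convergent neighbour of DLX5 on chromosome 7, was near the detection limit in all groups. Its probe (ILMN_2225151) was detected on 2 of the 8 arrays, SH-EP2 TRPM7 shRNA replicate 1 and SH-SY5Y TRPM7 shRNA replicate 2, each at a detection p of 0.0442. The signals were 2.33 and 2.28 in SH-SY5Y control cells and 2.99 and 3.05 in SH-SY5Y TRPM7 shRNA cells. Both TRPM7 shRNA arrays were above both control arrays. The difference of 0.72 (standard error 0.46, 95% interval -0.25 to 1.69) did not pass the threshold of an adjusted p under 0.05 (adjusted p = 0.630, limma). No fold is given, because the brighter group lay below the lowest level of detected probes. In SH-EP2 the signals were 3.02 and 2.85 in control cells and 3.25 and 2.64 in TRPM7 shRNA cells, with a difference of 0.01 (95% interval -0.96 to 0.98, adjusted p = 0.997, limma). Each interval leaves out the DLX5 value of the same line, but with the probe at the detection limit a change of the transcript may not be seen in its signal.

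The antisense transcript DLX6-AS1, which the array calls DLX6AS (ILMN_3242922), overlaps DLX6 on the opposite strand and was detected on 7 of the 8 arrays. In SH-EP2 its signals were 3.93 and 4.35 in control cells and 3.54 and 3.12 in TRPM7 shRNA cells. The groups did not overlap, and the difference of -0.81 (standard error 0.43, adjusted p = 0.475, limma) did not pass. In SH-SY5Y its signals were 3.34 and 3.92 in control cells and 4.26 and 3.63 in TRPM7 shRNA cells, which overlapped, with a difference of 0.32 (adjusted p = 0.869, limma). The difference between the lines was 1.12 (95% interval -0.15 to 2.40, adjusted p = 0.560, limma). The signs were those of DLX5 in both lines, with neither change past the threshold. Without SH-SY5Y TRPM7 shRNA replicate 1 the difference in SH-SY5Y was -0.0011.

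**Figure D2:**
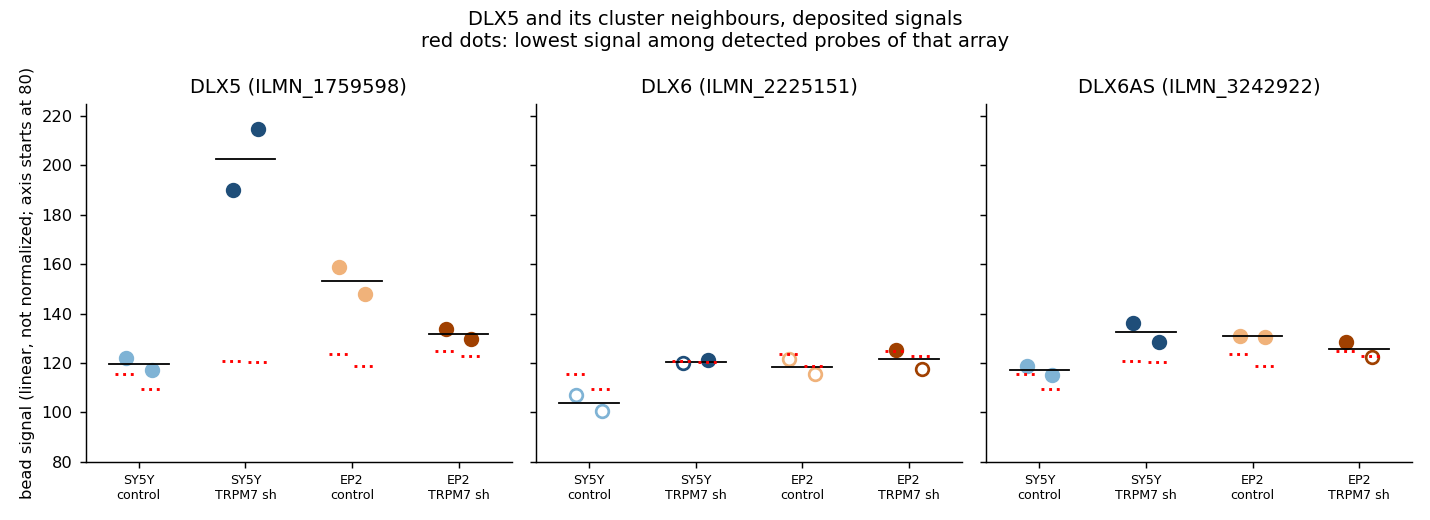
Deposited bead signal (vertical axis, linear, not normalized and not starting at 0) of DLX5, DLX6 and DLX6AS, with 1 point per array, a black line at the group mean and a dotted red line at the lowest signal among the detected probes of that array. DLX5 reaches 189.9 and 214.9 in SH-SY5Y TRPM7 shRNA cells, while the DLX6 points lie close to the dotted lines or under them, with 2 of the 8 just above.

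DLX1 was bright in SH-EP2 and close to or under the detection limit in SH-SY5Y. The brighter probe (ILMN_1672094) read 8.55 and 8.48 in SH-EP2 control cells and 9.02 and 9.01 in SH-EP2 TRPM7 shRNA cells, and was undetected on all SH-SY5Y arrays (1.83 to 2.70). The dimmer probe (ILMN_2388445) read 5.49 and 5.44 in SH-EP2 control cells and 6.05 and 5.87 in SH-EP2 TRPM7 shRNA cells, and in SH-SY5Y was detected on TRPM7 shRNA replicate 1 only. Both probes were thus higher on both TRPM7 shRNA arrays of SH-EP2, where DLX5 was lower. The differences were 0.50 (standard error 0.24, adjusted p = 0.389, limma) and 0.50 (standard error 0.39, adjusted p = 0.688, limma) and did not pass. With the SH-EP2 arrays normalized and fitted alone, the brighter probe passed at a difference of 0.51 (adjusted p = 0.00108, limma), and it also passed with normexp (0.43) and without background correction (0.40).

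DLX2, the neighbour of DLX1 on chromosome 2, and DLX4 were detected on no array. The DLX2 probe (ILMN_1692368) ranged from 2.07 to 2.47, and the 3 DLX4 probes ranged from 1.55 to 2.88. Their levels have only an upper bound, so no fold is given for them, and their fitted differences are drawn as open points in the plot of the knockdown contrasts. DLX3, which lies beside DLX4 and is known for its role in hair, tooth and bone, was detected on all 4 SH-EP2 arrays. Its probe (ILMN_1789357) read 4.07 and 5.32 in SH-EP2 control cells and 4.02 and 3.84 in SH-EP2 TRPM7 shRNA cells. Control replicate 1 was closer to the TRPM7 shRNA arrays than to control replicate 2. The difference of -0.77 (standard error 0.50, adjusted p = 0.605, limma) did not pass. It was -0.14 without control replicate 2 and -1.40 without control replicate 1. In SH-SY5Y the DLX3 probe was detected on TRPM7 shRNA replicate 2 only.

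MSX1, a repressor that marks undifferentiated mesenchyme and the neural plate border, was detected on 7 of the 8 arrays. Its probe (ILMN_1777397) read 3.68 and 2.41 in SH-SY5Y control cells, with replicate 2 undetected, and 4.77 and 4.23 in SH-SY5Y TRPM7 shRNA cells. Both TRPM7 shRNA arrays were above both control arrays. By limma MSX1 rose by a log2 of 1.45 (adjusted p = 0.00424, standard error 0.27), a change that was known when the genes were listed and is not independent evidence. The standard error pools the spread of all 4 groups and draws on the intensity trend, so it is not the spread of the SH-SY5Y arrays alone. The SDs were 0.90 and 0.38 in the SH-SY5Y control and TRPM7 shRNA groups, and 0.023 and 0.058 in those of SH-EP2. The SH-SY5Y control arrays differed from each other, and the increase was 0.82 without control replicate 2 and 2.06 without control replicate 1. Without TRPM7 shRNA replicate 1 it was 1.18 and did not pass (adjusted p = 0.0930, limma). It was 0.68 with neqc, 0.31 with normexp and 0.20 without background correction, and did not pass with the last 2 of these, without an intensity trend (adjusted p = 0.349, limma) or with the SH-SY5Y arrays alone (adjusted p = 0.162, limma). Of the 18 epithelial-like marker probes 1 rose and 4 fell in these cells, and their part in the MSX1 value was not tested.

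In SH-EP2 cells MSX1 was among the bright probes, at 10.07 and 10.03 in control cells and 10.32 and 10.40 in TRPM7 shRNA cells. Both TRPM7 shRNA arrays were higher, by 0.31 (standard error 0.27, 95% interval -0.25 to 0.88), and the test across all groups was not passed (adjusted p = 0.733, limma). It was passed with the SH-EP2 arrays alone (0.31, adjusted p = 0.00987, limma) and without background correction (0.29, adjusted p = 0.0441, limma). The MSX1 values thus had the same sign in both lines, unlike those of DLX5, and the difference between the lines was 1.14 (95% interval 0.34 to 1.94, adjusted p = 0.217, limma). That difference passed without SH-SY5Y control replicate 1 (1.75, adjusted p = 0.00115, limma) and with replicate numbers as a block (adjusted p = 0.0498, limma). It was 0.51 without SH-SY5Y control replicate 2, 0.37 with neqc, 0.02 with normexp and -0.08 without background correction, and passed in none of these.

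MSX2, which acts in the skull and in bone-forming cells together with DLX5, was detected on all 4 SH-SY5Y arrays and on 2 of the 4 SH-EP2 arrays. Its probe (ILMN_1766951) read 4.81 and 4.41 in SH-SY5Y control cells and 4.63 and 4.78 in SH-SY5Y TRPM7 shRNA cells. The groups overlapped, and the difference was 0.09 (95% interval -0.74 to 0.92, adjusted p = 0.968, limma). In SH-EP2 it read 3.40 and 3.14 in control cells and 2.79 and 3.42 in TRPM7 shRNA cells, with a difference of -0.17 (95% interval -0.996 to 0.665, adjusted p = 0.934, limma). These intervals do not reach the DLX5 values of either line. In SH-EP2, however, the probe was at the detection limit, so a fall of the transcript may not be seen in its signal.

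Apart from DLX5, which is left out of these counts because its values chose the genes, 1 of the 10 member probes (MSX1, higher) passed the threshold in SH-SY5Y, where 2.12% of all probes passed. In SH-EP2, 0 of the 10 passed (limma), where 3.03% of all probes did. The difference between the lines was passed by 0 of the 10 (limma), where 1.42% of all probes passed. At an unadjusted p under 0.05 there were 2, 1 and 2 of the 10 (limma), beside 5386, 5940 and 4881 of all 47322 probes. Nothing is read from these shares, since the genes were listed with results of these contrasts known. The median log2 fold change of the 10 probes, 4 of which no array detected, was 0.19 in SH-SY5Y and 0.04 in SH-EP2, and that of all probes was 0.0048 and 0.0060.

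**Figure D3:**
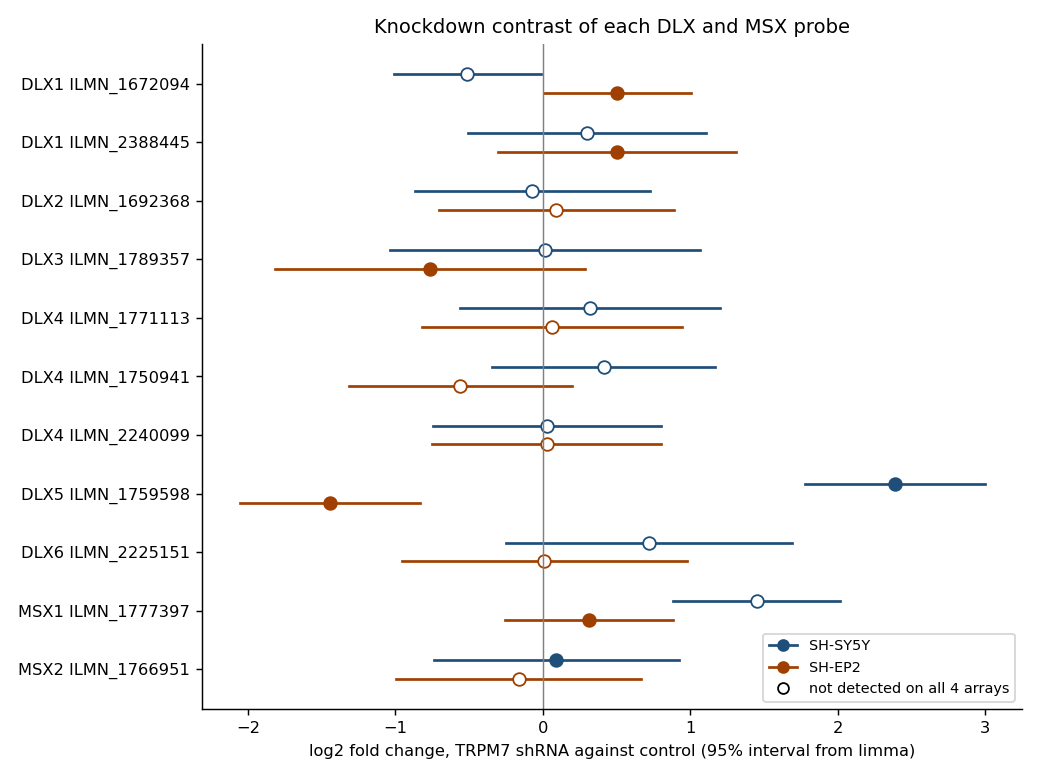
Log2 fold change of TRPM7 shRNA against control (horizontal axis) with its 95% interval from limma, for the 11 DLX and MSX probes in SH-SY5Y (blue) and SH-EP2 (brown), with filled points where all 4 arrays of the line detected the probe. DLX5 lies at 2.39 in SH-SY5Y and at -1.45 in SH-EP2, MSX1 lies at 1.45 in SH-SY5Y, and the interval of DLX6 spans 0 in both lines. The DLX5 intervals are no test, since its values chose the genes.

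The lines themselves differed widely in these genes. This contrast, SH-EP2 control against SH-SY5Y control cells, shares its control arrays with the contrasts that chose DLX5, so DLX5 is given without a test, 1.53 higher in SH-EP2. Of the other 10 probes 5 passed, 4 of them higher in SH-EP2, where 26.2% of all probes passed. MSX1 was higher in SH-EP2 by a log2 of 7.0 (adjusted p = 3.57e-14, limma, with a standard error of 0.27), measured against control arrays of which 1 of 2 detected it. The MSX1 difference was 6.37 without SH-SY5Y control replicate 2, 7.63 without SH-SY5Y control replicate 1 and 3.31 without background correction, and passed in each. DLX1 was at least 41.1-fold higher by the brighter probe (adjusted p = 5.48e-14, limma) and at least 4.96-fold higher by the dimmer probe (adjusted p = 3.80e-06, limma), with both undetected in SH-SY5Y control cells. Without background correction their fitted log2 differences were 2.08 and 0.48, that of DLX3 was 0.28 and that of MSX2 -0.19, and all of these still passed. DLX3 was at least 2.91-fold higher (adjusted p = 0.00631, limma), which was lost without SH-EP2 control replicate 2 (log2 difference 1.28, adjusted p = 0.165, limma).

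MSX2 ran the other way and was lower in SH-EP2 control cells by a log2 of -1.34 (standard error 0.40, adjusted p = 0.0142, limma). This was lost without SH-EP2 control replicate 2 (-1.22, adjusted p = 0.0811, limma) or SH-SY5Y control replicate 1 (-1.13, adjusted p = 0.125, limma). DLX6 was undetected in the control cells of both lines, and DLX6AS differed by 0.51 (adjusted p = 0.485, limma). MSX1 and MSX2, the members of one family, were thus each higher in a different line. The neuroblastic and epithelial-like markers separated the same arrays, and their part in these values was not tested.

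**Figure D4:**
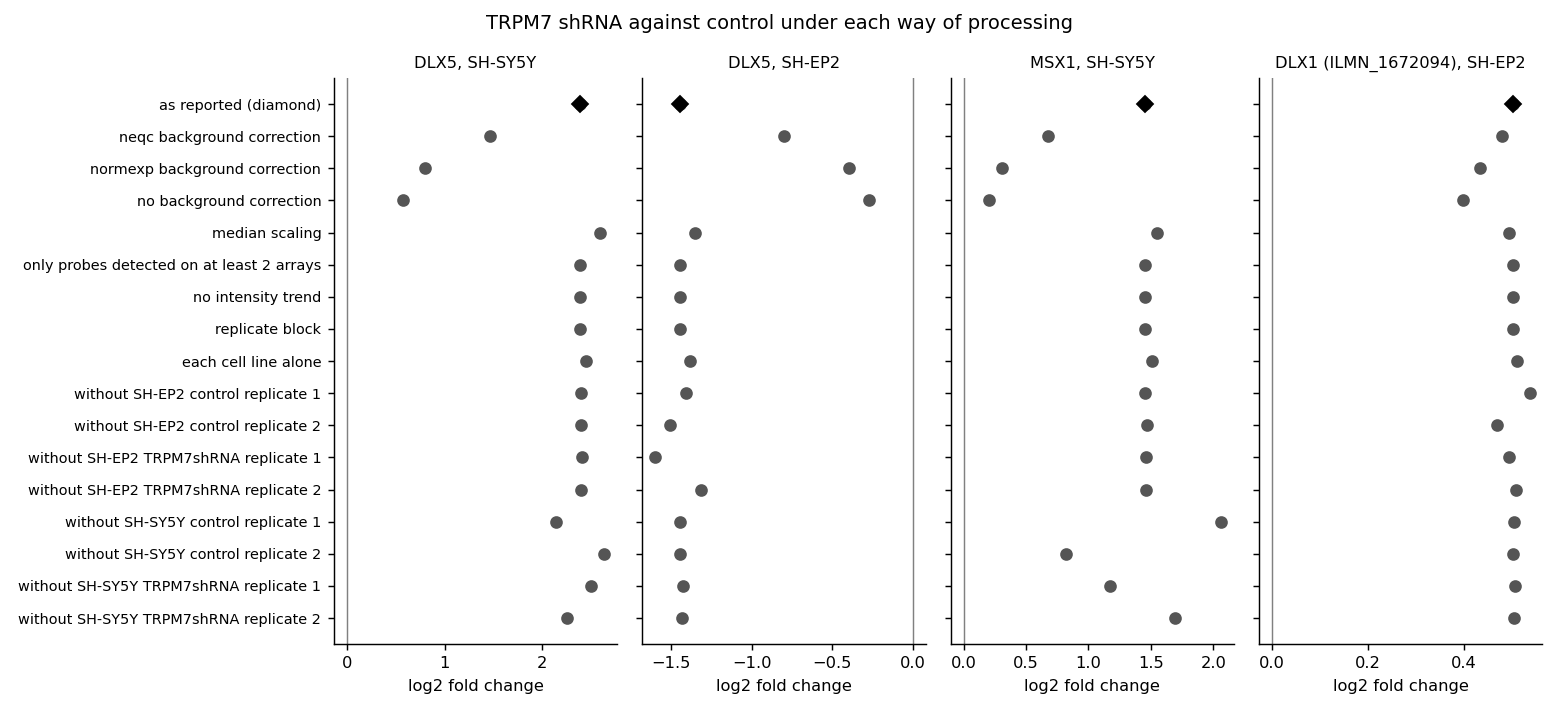
Log2 fold change of TRPM7 shRNA against control (horizontal axis) for DLX5 in both lines, MSX1 in SH-SY5Y and the brighter DLX1 probe in SH-EP2, under each way of processing (vertical axis), with a diamond for the reported value. All points of a panel lie on the same side of 0, and the DLX5 and MSX1 values shrink with milder background correction, to 0.57 for DLX5 and 0.20 for MSX1 in SH-SY5Y without it.

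Genes next to the DLX and MSX loci were read as well, up to 2 on each side, which gave 20 genes and 28 probes. In SH-SY5Y, 1 probe passed as higher and 1 as lower, where 2.12% of all probes passed. The former was CYTL1 (ILMN_2201596), the neighbour of MSX1 that encodes a secreted cytokine-like protein, higher by 0.55 (standard error 0.13, adjusted p = 0.0225, limma). It did not pass with any of the 4 SH-SY5Y arrays left out (0.53 to 0.58) or with the replicate block (adjusted p = 0.0544, limma). The latter was SFXN1 (ILMN_2205935), a mitochondrial serine transporter encoded near MSX2, which fell by 1.42 in SH-SY5Y (adjusted p = 0.000116, limma) and by 1.38 in SH-EP2 (adjusted p = 0.00015, limma). MSX2 itself did not pass in either line. SFXN1 was the only neighbour past the threshold in SH-EP2, where 3.03% of all probes passed. SDHAF3 and TAC1, on the far side of the DLX5 and DLX6 locus, did not pass in either line.

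Pathway genes around the members were counted by list, where 2.12% of all probes passed in SH-SY5Y and 3.03% in SH-EP2. At an unadjusted p under 0.05 (limma) there were 5386 and 5940 of all 47322 probes. The lists were made with earlier results of these arrays known, so nothing is read from their counts beside these shares. In SH-SY5Y the paper reports SNAI2, ID3 and EDNRA as lower and LEF1 as higher. In SH-EP2 it reports SNAI2, TWIST1 and LEF1 as lower and SOX9 as higher. Of 39 probes of neural plate border and neural crest transcription factors, 2 fell in SH-SY5Y. Both were of SNAI2, a repressor of epithelial genes (-2.77 and -2.40). In SH-EP2, 5 fell and 1 rose. These were both SNAI2 probes (-1.39 and -1.27), TWIST1 (-0.37), both probes of LEF1, a partner of beta-catenin (at least 3.20-fold and at least 1.54-fold lower), and SOX9, which rose by 0.94. In SH-SY5Y both LEF1 probes were higher in TRPM7 shRNA cells (means 7.47 and 7.57) than in control cells (6.80 and 6.82), without passing. The LEF1 signs were thus those of DLX5 in both lines. Of 40 probes of BMP signaling, 3 fell in SH-SY5Y, among them the BMP targets ID1 (-0.79) and ID3 (-0.59). In SH-EP2, ID3 (-0.50) and the inhibitory SMAD6 (-0.75) fell, and 1 probe of the antagonist FST rose (ILMN_1712896, at least 2.67-fold). The brighter FST probe (ILMN_1700081), detected on every SH-EP2 array, did not pass. Its mean was 7.63 in control cells and 8.54 in TRPM7 shRNA cells, a smaller difference than that bound. The FST call was lost with any SH-EP2 array left out. The second LEF1 probe was -0.80 without SH-EP2 control replicate 2 and -1.18 without SH-EP2 TRPM7 shRNA replicate 2, and passed with neither.

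Of 24 probes of osteoblast and skeletal genes, 0 passed in SH-SY5Y (3 at an unadjusted p under 0.05, limma) and 5 fell in SH-EP2. These were both probes of the collagen gene COL1A2 (-1.41 and -1.56), COL1A1 (-0.56), ATF4 (-0.36) and the alkaline phosphatase ALPL (at least 1.61-fold lower). ALPL, COL1A1 and ATF4 did not pass without SH-EP2 control replicate 1 (-1.20, -0.56 and -0.32) or SH-EP2 TRPM7 shRNA replicate 2 (-1.30, -0.50 and -0.35). The same 2 arrays decided 1 SNAI2 probe (-1.29 and -1.16) and TWIST1 (-0.36 and -0.32). Without SH-EP2 control replicate 2 the calls of COL1A1 (-0.58), the same SNAI2 probe (-1.24) and TWIST1 (-0.37) were lost too. ATF4 (-0.38) and ID3 (-0.47) were lost without SH-EP2 TRPM7 shRNA replicate 1, and ID3 (-0.43) without control replicate 1.

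Of 42 probes of craniofacial and limb patterning genes, the endothelin receptor EDNRA (-1.63) and the homeobox gene HLX (-0.86) fell in SH-SY5Y. There 1 probe of the homeobox gene SHOX2 rose (ILMN_1666777, 1.56). SHOX2 passed with none of the SH-SY5Y arrays left out (1.28 to 1.84). The other SHOX2 probes did not pass in SH-SY5Y. From control to TRPM7 shRNA cells, the mean of ILMN_1756411 went down from 3.68 to 2.98. That of ILMN_1702979 went up from 3.11 to 3.51. In SH-EP2, EDNRA rose (at least 1.78-fold). That call was lost without SH-EP2 control replicate 1 (1.04) or TRPM7 shRNA replicate 2 (0.78). The EDNRA changes had signs opposite to those of DLX5 in both lines.

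Of 33 probes of GABAergic interneuron genes, 1 passed, SLC32A1, the vesicular GABA transporter, which rose by a fitted log2 of 4.03 in SH-SY5Y cells (adjusted p = 7.78e-05, limma), where both TRPM7 shRNA arrays and 1 of 2 control arrays detected it. The size was 3.37 without control replicate 2, 4.68 without control replicate 1 and 0.87 without background correction. None of them passed in SH-EP2 (0 of 33 by limma, 3 at an unadjusted p under 0.05). Of 22 probes of proteins that bind DLX or MSX factors, 0 passed in either line (limma), with 1 and 2 at an unadjusted p under 0.05. The medians of the 6 lists lay between -0.09 and 0.11 in SH-SY5Y and between -0.20 and 0.12 in SH-EP2. In the same contrasts 1 probe of the epithelial-like markers rose and 4 fell of 18 in SH-SY5Y, and 4 of 15 neuroblastic probes fell. In SH-EP2 these counts were 1 and 5 of 18, and 2 of 15. The part of such markers in the list values was not tested. Without an intensity trend, where 64 probes passed in SH-SY5Y and 102 in SH-EP2 of all probes, the list calls that remained were those of 1 SNAI2 probe (ILMN_2082585) in SH-SY5Y and of 1 LEF1 probe (ILMN_1679185) and 1 COL1A2 probe (ILMN_1785272) in SH-EP2, and the SFXN1 calls were lost (adjusted p = 0.104 and 0.0764, limma). HLX, ATF4 and FST did not pass with median scaling, and ALPL, the second LEF1 probe and EDNRA in SH-EP2 did not pass with normexp or without background correction.

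Over the 8 arrays, the probes with a level pattern most like that of DLX5 were those of C3orf59 (Pearson r = 0.97), TSPAN9 (0.95), METRNL (0.95), VSTM2L (0.95) and SRP54 (0.95), among 20567 probes searched. The means of VSTM2L were 3.36 in SH-SY5Y control cells, 6.33 in SH-SY5Y TRPM7 shRNA cells, 4.68 in SH-EP2 control cells and 2.78 in SH-EP2 TRPM7 shRNA cells. The correlation takes no account of size, and the others varied less. In the same order of groups the means were 7.71, 8.45, 8.25 and 7.91 for C3orf59, and 10.41, 10.61, 10.52 and 10.39 for SRP54. For MSX1 the most similar probes were those of HSD17B1, AFAP1L2, FAM20C, TNFRSF10B and STS-1, all with r of 0.998 or above. The MSX1 pattern is set by the gap between the lines, which many probes share, and the arrays share 4 groups, so these values are a description.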

How the data were processed

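Total RNA of 8 samples was hybridised by the authors to 1-colour Illumina HumanHT-12 v4 arrays. Per the labels, GenomeStudio 2011.1 was used, and the deposited table holds linear bead signal intensities, not normalized, with a detection p-value for each of 47322 probes. The table names no genome build. Samples were grouped by the line and shRNA of their labels, and 0 columns belonged to other series.

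Intensities were corrected with the RMA background model, as the methods name Robust-Multi-Array, quantile normalized and taken to log2 with no filter. All 8 arrays were fitted together in limma 3.58.1 (R 4.3.3) by lmFit with a mean per group, and eBayes was run with its trend option on intensity. The p-values are two-sided, were adjusted by the Benjamini-Hochberg method for 47322 probes and had to be under 0.05. A fold is given as a bound where a group was undetected, set against the lowest signal among detected probes. Such a bound uses the mean of the brighter group and holds no sampling error. The procedure was run on simulated arrays drawn from the fitted model itself. The tolerance for recovery was set with the recovered numbers known, so this run is no independent check. The number of arrays limits the precision.

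The members, gene lists and markers were chosen with earlier results of these data known. The genes named are all member probes, list genes past the threshold (at most 5 per list and contrast), up to 2 neighbours on each side of a locus and the 5 probes most correlated with DLX5 and with MSX1. RefSeq (GRCh38.p14) gave names and neighbours, with 17761 symbols current and 3307 older names of 1 gene. Replicate numbers did not pair arrays (correlation of deviations -0.0044 in SH-EP2 and -0.11 in SH-SY5Y). Other settings tried were normexp (offset 50), neqc (offset 16), signals without background correction (floor 1), median scaling, probes detected on at least 2 arrays, no intensity trend, each line alone, a replicate block, and each array left out. A crossed block was added after seeing the data. Of the list and marker genes, 2 enter the counts and are not reported singly here.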

Additional observations from a re-analysis of the deposited data

Results flagged for a closer look

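The DLX5 knockdown effect differed between the lines by 3.83 on the log2 scale (2.39 in SH-SY5Y and -1.45 in SH-EP2), with both arrays of each group on the same side. This difference is the value on which the genes were chosen, so it is a description. It was 2.26 with neqc, 1.20 with normexp and 0.84 without background correction.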

How the results depend on the processing

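Member probes past the threshold were counted with DLX5 included, although its values chose the genes, so that these counts show how the settings act and are no test of DLX5. In SH-SY5Y their number was 2 and became 1 (DLX5) with normexp, without background correction, without an intensity trend and with each line alone, and 1 to 2 with single arrays left out (1 without SH-SY5Y TRPM7 shRNA replicate 1). In SH-EP2 it was 1 and became 2 with normexp (DLX1 added), 3 without background correction and 3 with each line alone (DLX1 and MSX1 added), 0 without an intensity trend (limma, with 2 at an unadjusted p under 0.05), and 0 to 1 with single arrays left out (0 without control replicate 1 or 2 or TRPM7 shRNA replicate 2, while the DLX5 difference ranged from -1.60 to -1.31 over all arrays left out in turn). For the difference between the lines it was 1 and became 2 with normexp and 2 without background correction (DLX1 added), 2 with the replicate block (MSX1 added) and 1 to 2 with single arrays left out (2 without SH-SY5Y control replicate 1). Between the control cells of the lines it was 6, and 4 to 6 with single arrays left out. Arrays of the same number are not pairs here, and the replicate block changed no other member count. With the crossed block the counts were 2 in SH-SY5Y and 1 for the difference between the lines. These signs turned, none in a change past the threshold. With single arrays left out, MSX2 in SH-SY5Y ranged from -0.108 (without control replicate 2) to 0.29, and DLX6AS in SH-SY5Y from -0.0011 (without TRPM7 shRNA replicate 1) to 0.62. The difference between the lines then ranged from -0.74 to 0.32 for the dimmer DLX1 probe (0.32 without SH-SY5Y TRPM7 shRNA replicate 2) and from -0.0581 (without SH-EP2 TRPM7 shRNA replicate 1) to 0.57 for MSX2, and for MSX1 it was -0.0823 without background correction. The cause was not tested. Over all probes, 386 were higher and 617 lower in SH-SY5Y, and 553 and 284 with median scaling, while DLX5 and MSX1 stayed higher. Signals near the background limit what can be said of DLX2, DLX4 and DLX6.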
